A study of Homo sapiens with 4 samples.

Results

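The 73 histone cluster genes are those of the 26506 gene symbols in the RNA-seq tables that begin with HIST1H, HIST2H, HIST3H or HIST4H. By their symbols, 6 encode the linker histone H1, 18 encode H2A, 20 encode H2B, 14 encode H3 and 15 encode H4. The major cluster, HIST1, on the short arm of chromosome 6, holds 56 of them. A further 13 belong to HIST2 and 3 to HIST3, both on chromosome 1, and HIST4H4 is the single member of HIST4, on the short arm of chromosome 12. The set includes 3 members that GENCODE does not annotate as protein coding, among them the pseudogene HIST2H2BC.

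Total RNA was sequenced from HeyC2 and SKOV3, established human ovarian cancer cell lines that were transfected with pCMV6/TET1, a plasmid that expresses the DNA demethylase TET1 from a viral promoter, or with the empty plasmid. All cells, controls included, were transfected with Lipofectamine 2000 and kept in medium with 400 μg/ml Geneticin. There are 4 libraries, 1 for each line and plasmid (HeyC2 control, HeyC2 TET1, SKOV3 control and SKOV3 TET1), so no difference between them has a replicate check and no test was made. The labels do not say whether the cells were a clone or a pool. TET1 itself was deposited at 0.20 FPKM with the empty plasmid and 1.68 with TET1 in HeyC2, and at 0.43 and 2.42 FPKM in SKOV3. With the scaling described below removed, the TET1 libraries were at 0.52 FPKM in HeyC2 and 1.80 FPKM in SKOV3.

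FPKM is the number of sequenced fragments divided by transcript length and by library depth, so levels can be set side by side between genes. The deposited FPKM of each TET1 library had been multiplied by a constant, 3.23 in HeyC2 and 1.35 in SKOV3, that made GAPDH equal in TET1 and control. All FPKM below are given with that constant removed. The relative log2 difference of a gene is log2((TET1 + 1)/(control + 1)) minus the median of the same over all genes with a mean of at least 1 FPKM in that line. That all-gene median was 0.06 over 11896 genes in HeyC2 and 0.19 over 13016 genes in SKOV3. Depth was estimated from the steps between the lowest values at 7560000, 6800000, 7260000 and 6760000 fragments in the HeyC2 control, HeyC2 TET1, SKOV3 control and SKOV3 TET1 libraries. For a transcript of 500 bases, 1 fragment was worth between 0.42 and 0.47 FPKM, and by counting error alone a value of 0 allows up to 3 fragments, between 1.26 and 1.41 FPKM. A counting SD given beside a difference comes from these estimated fragments alone. It covers counting error between those libraries and says nothing of how cultures vary. It holds no pseudocount, while the difference does, so the differences of low members are small beside it.

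Clustered histone genes supply the histones that package newly copied DNA. Their mRNAs are made in S phase, carry no introns, and usually end in a short stem-loop, bound by the protein SLBP, where other mRNAs carry a poly(A) tail. Some members also make polyadenylated transcripts that run past the stem-loop, a form known from cells that have left the cell cycle. The labels name TruSeq RNA Sample Preparation Kits, whose standard protocol captures RNA by its poly(A) tail, and mRNA that ends at a stem-loop is poorly caught by such a step. The sources used here do not describe the capture, and its part in the levels was not tested.

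The stem-loop is what sets these transcripts apart, so it was looked for in the GRCh37 genome behind each coding sequence. The search took 16 bases within 200 bases after the stop codon that began with GG, ended with CC, had TTT at positions 7 to 9 and paired in at least 5 of 6 stem positions, on the coding strand. It was found behind 64 of the 67 members with an annotated coding sequence (95.5%). Of 3966 other protein-coding genes on chromosomes 1, 6 and 12 searched in the same way, 6 held a match (0.151%). HIST1H2BI, HIST1H3E and HIST1H4L had none in this window, which says only that these letters are not there. The element began between 23 and 68 bases after the stop codon, with a median of 37. The commonest spelling was found in 39 members of H1, H2A, H2B and H3, and the second was shared by 9 members of the same types. The other spellings shared by several members were found behind H4 genes alone, in 9 and 4 of them. They are shown for members that the results below describe and, for the first H4 spelling, for HIST1H4E, 5′ to 3′ on the coding strand with the 4 loop bases in capitals and the paired stem in lower case.

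HIST1H2AC, chr6:26124897-26124912, plus strand: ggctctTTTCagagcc
HIST1H1C, chr6:26055972-26055987, minus strand: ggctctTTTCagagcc
HIST3H2A, chr1:228645070-228645085, minus strand: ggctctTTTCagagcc
HIST1H2BK, chr6:27114145-27114160, minus strand: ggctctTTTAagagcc
HIST1H2BD, chr6:26158815-26158830, plus strand: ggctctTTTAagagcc
HIST1H4E, chr6:26205229-26205244, plus strand: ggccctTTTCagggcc
HIST2H4A, chr1:149804596-149804611, plus strand: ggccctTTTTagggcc
HIST1H4K, chr6:27798956-27798971, minus strand: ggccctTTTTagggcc
HIST1H2AG, chr6:27101294-27101309, plus strand: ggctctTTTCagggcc

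Only A-T and G-C pairs were counted. In HIST1H2AG 5 of 6 stem positions pair in this way and the remaining one sets T against G, and in the other elements shown all 6 pair. The canonical transcript of the members ended a median of 5 bases past the element.

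Most histone cluster genes were listed at or near 0 in these libraries. A listed 0 is not always a measured absence, since H3F3A, an H3.3 gene that cells in general use, was also listed at 0 in all 4 libraries. Of the 73, 19 were listed at 0 in all 4 libraries, 27 were above 0 with a mean under 1 FPKM, and 27 had a mean of at least 1 FPKM. Only 7 had a mean of at least 10 FPKM. Members above 0 numbered 33 with the empty plasmid and 41 with TET1 in HeyC2, and 32 and 42 in SKOV3, and 17 were above 0 in all 4. The summed FPKM of the members was 298 in control and 510.01 in TET1 cells of HeyC2, and 155 and 252 in those of SKOV3. This was 0.0618%, 0.101%, 0.0327% and 0.0553% of the FPKM of all genes in those 4 libraries. The 5 highest members held between 57.3% and 70.5% of the members' sum, so each sum describes a few genes.

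H2A and H2B genes made up most of the signal. Together they held 78.9% of the members' FPKM in control and 81.4% in TET1 cells of HeyC2, and 68.9% and 70.6% in those of SKOV3. H2B was the leading type in the HeyC2 control, with 45.5%, and H2A was the leading type in SKOV3, with 43.9% in the control and 52.5% in TET1. H3 genes held between 1.5% and 3.07%, although an H3 and an H4 go into every nucleosome in the same number as an H2A and an H2B. None of the 14 H3 genes reached a mean of 10 FPKM, and 2 reached a mean of 1 FPKM. H4 genes held between 6.09% and 16.7%, and H1 genes, for the most part through HIST1H1C, between 9.0% and 17.3%.

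**Figure D1:**
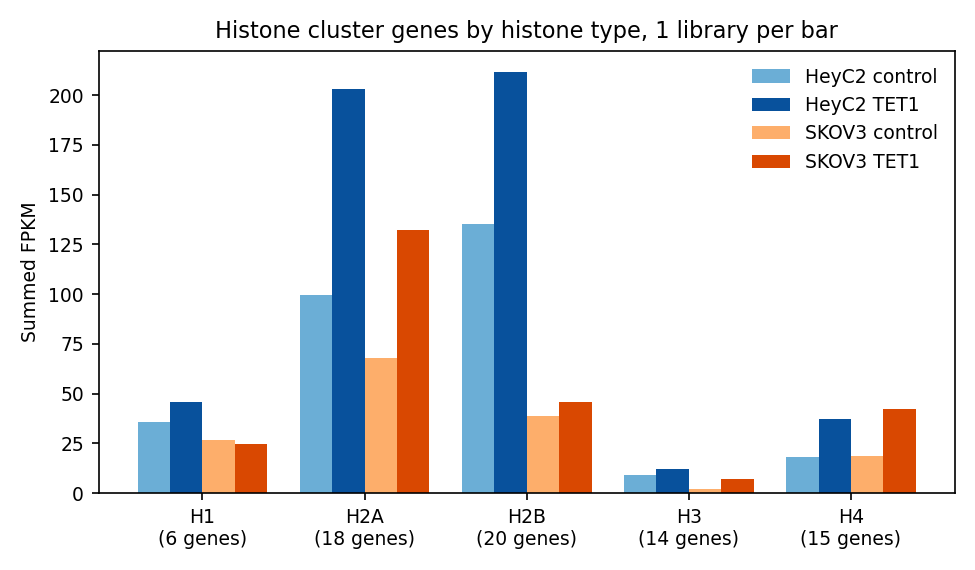
Summed FPKM of histone cluster genes (vertical axis, scaling to GAPDH removed) by histone type, with 1 bar for each library. The H2A and H2B bars are the tallest in both HeyC2 libraries, at 99.6 and 135 FPKM in the control and 203 and 212 FPKM in TET1, and the H3 bars stay at or below 11.9 FPKM.

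HIST1H1C encodes H1.2, a linker histone that binds DNA where it enters and leaves the nucleosome. It was at 35.6 and 44.2 FPKM in control and TET1 cells of HeyC2, and at 26.3 and 24.6 FPKM in those of SKOV3. Its gene (chr6:26055968-26056698) was at a like level in all 4 libraries, and the relative log2 difference was 0.25 in HeyC2 (counting SD 0.16) and -0.29 in SKOV3 (counting SD 0.21). The other 5 H1 genes had means under 1 FPKM.

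Of the H2A genes, HIST1H2AC (chr6:26124373-26139344) stood apart by line. It was at 54.0 FPKM with the empty plasmid and 60.3 with TET1 in HeyC2, and at 5.24 and 26.4 FPKM in SKOV3. The relative log2 difference was 0.10 in HeyC2 (counting SD 0.17) and 1.94 in SKOV3 (counting SD 0.45), from about 12.7 fragments with the empty plasmid and 59.6 with TET1. The SKOV3 control was the low library, and the other 3 were within a range of 26.4 to 60.3 FPKM.

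HIST2H2AA3 and HIST2H2AA4 are a duplicated H2A gene on chromosome 1 with identical coding sequences, and the tables list the same value for both in every library. Each was at 15.2 and 60.4 FPKM in control and TET1 cells of HeyC2, and at 18.6 and 20.2 FPKM in those of SKOV3. Here the library that stood apart was HeyC2 TET1, with a relative log2 difference of 1.86 (counting SD 0.26), and the SKOV3 libraries differed by -0.07 (counting SD 0.30). Reads of such copies cannot be assigned to either gene, and the quantifier shares them out.

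HIST3H2A (chr1:228622478-228645574), the H2A gene of the HIST3 cluster, was higher with TET1 in both lines. It was listed at 0 in the HeyC2 control and at 9.08 FPKM in HeyC2 TET1, and at 14.7 and 53.0 FPKM in the corresponding SKOV3 libraries. Against a floor of 3 fragments in the control, which for this gene is 1.22 FPKM, HeyC2 TET1 was at least 7.44-fold higher. In HeyC2 its relative log2 difference, 3.28, is set by the pseudocount of 1, and it was 2.12 with the control at that floor, 4.24 with TPM, and 6.45 and 9.76 with pseudocounts of 0.1 and 0.01. In SKOV3 the relative log2 difference was 1.59 (counting SD 0.28). SKOV3 TET1 held about 116 fragments of the gene and the SKOV3 control 34.6. Its divergent partner HIST3H2BB, whose start lies 230 bases away on the other strand, reached at most 1.57 FPKM.

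HIST1H2AG was low and alike in all 4 libraries, at 2.80, 4.06, 3.00 and 3.66 FPKM in the HeyC2 control, HeyC2 TET1, SKOV3 control and SKOV3 TET1. HIST1H2AE was the member with the lowest mean relative difference among those measured in both lines, at 2.01 and 1.88 FPKM in HeyC2 and 3.57 and 2.67 FPKM in SKOV3. Its relative log2 differences of -0.12 and -0.51 were smaller than their counting SDs of 0.95 and 0.77.

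The most abundant member was HIST1H2BK, an H2B gene (chr6:27114140-27114634). It was at 69.8 FPKM with the empty plasmid and 95.0 with TET1 in HeyC2, and at 21.1 and 19.2 FPKM in SKOV3. Both HeyC2 libraries were above both SKOV3 libraries. The relative log2 difference between TET1 and control was 0.38 in HeyC2 (counting SD 0.15) and -0.32 in SKOV3 (counting SD 0.31). The gene has no annotated transcript that runs over 100 bases past the stem-loop and no AATAAA, the common poly(A) signal, within 200 bases of the stop codon, the only member with a mean of at least 10 FPKM and neither feature.

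HIST1H2BD (chr6:26158350-26171577) was higher with TET1 in both lines, from 35.3 to 77.4 FPKM in HeyC2 and from 4.20 to 8.89 FPKM in SKOV3. The relative log2 difference was 1.05 in HeyC2 (counting SD 0.20) and 0.74 in SKOV3 (counting SD 0.58), where the control held about 9.2 fragments. The HeyC2 difference exceeded 2 counting SDs and the SKOV3 difference did not.

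HIST2H2BE (chr1:149856009-149858232) encodes an H2B whose canonical transcript runs 1729 bases past the stem-loop, the longest such extension of a canonical transcript among the members. It was at 2.70 and 14.4 FPKM in control and TET1 cells of HeyC2, and at 1.72 and 1.90 FPKM in those of SKOV3. Because the transcript has 2224 bases, these values stand for more fragments than in the short members, about 41.6, 199, 25.5 and 26.2. HeyC2 TET1 stood above the other 3 libraries, with a relative log2 difference of 2.00 (counting SD 0.25), against -0.10 in SKOV3 (counting SD 0.40).

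HIST1H2BC was lower with TET1 in HeyC2. It was at 15.5 FPKM in the HeyC2 control and 3.85 in HeyC2 TET1, about 32.2 and 7.2 fragments, a relative log2 difference of -1.82 (counting SD 0.59). In SKOV3 it was at 1.04 FPKM in the control and listed at 0 in TET1. Its gene model (chr6:26086545-26124154) spans HIST1H4C and HIST1H1T, and its start lies 246 bases from that of HIST1H2AC. The pseudogene HIST2H2BC was at 3.21 and 4.67 FPKM in HeyC2 and 8.55 and 7.30 FPKM in SKOV3, differences of 0.37 and -0.39, each smaller than its counting SD.

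Of the H3 genes, HIST1H3E was the highest, at 4.47 FPKM with the empty plasmid and 7.59 with TET1 in HeyC2, and at 0 and 0.51 FPKM in SKOV3. The relative log2 difference in HeyC2 was 0.59 with a counting SD of 0.59, and the gene was under the level needed for a value in SKOV3. No H3 gene passed the filter on low values in SKOV3.

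The H4 pair HIST2H4A and HIST2H4B, also duplicated with identical coding sequences, was listed at 6.23 and 9.41 FPKM in control and TET1 cells of HeyC2, and at 6.42 and 14.8 FPKM in those of SKOV3. The relative log2 difference was 0.47 in HeyC2 (counting SD 0.60) and 0.90 in SKOV3 (counting SD 0.56). HIST1H4K was at 2.04 and 7.86 FPKM in HeyC2 and 0.74 and 6.38 FPKM in SKOV3, with differences of 1.49 and 1.89 and counting SDs of 0.93 and 1.46. It shares its coding sequence with HIST1H4J, which was listed at 0 throughout. HIST4H4, on the arm of chromosome 12 whose 154 measured genes had a median relative difference of -0.72 in HeyC2 (0.03 over 146 genes in SKOV3), was at 0.53 and 0.61 FPKM in HeyC2 and 0 and 1.85 FPKM in SKOV3, too low for a value.

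**Figure D2:**
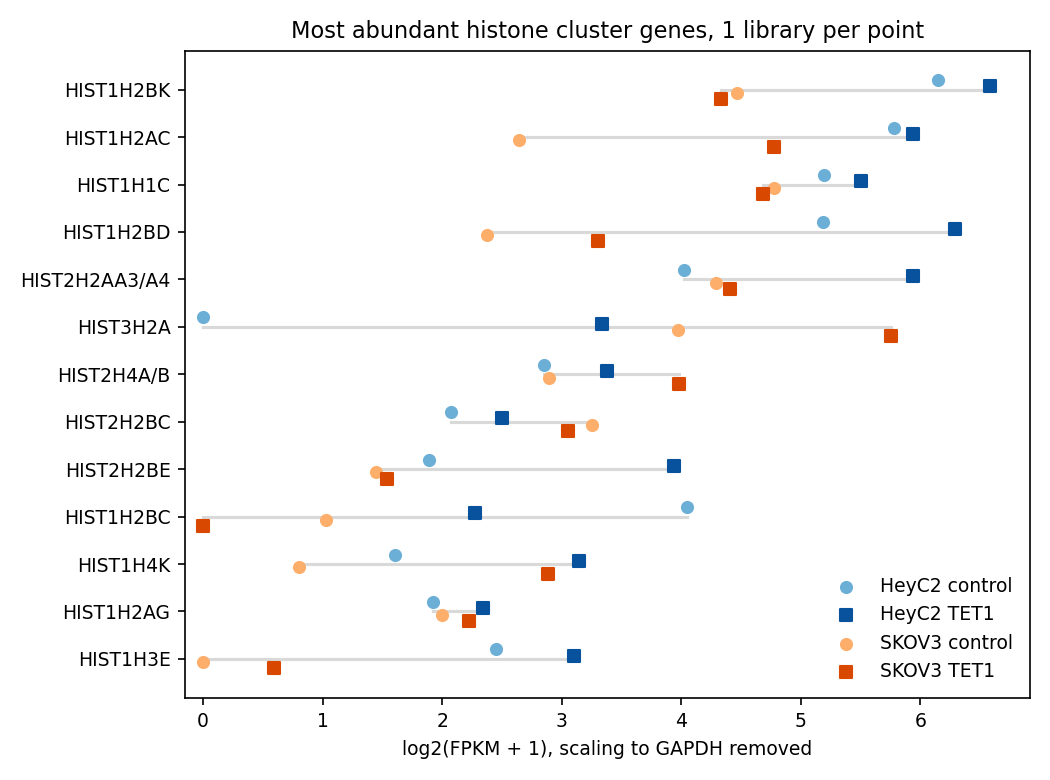
Level of the 15 most abundant histone cluster genes in each library as log2(FPKM + 1), with the scaling to GAPDH removed; circles are controls, squares are TET1, and pairs with identical values share a row. HIST1H2AC and HIST1H2BD lie lowest in the SKOV3 control, at 5.24 and 4.20 FPKM, while HIST2H2AA3/A4 and HIST2H2BE lie highest in HeyC2 TET1, at 60.4 and 14.4 FPKM.

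In HeyC2, 29 members had a mean of at least 1 FPKM over both libraries, and 13 of them (44.8%) were at least 1.5-fold higher in TET1 relative to the median of all genes, where 12.5% of all genes tested were. In the other direction 3 members (10.3%) were at least 1.5-fold lower, against 9.19% of all genes. The median of the 29 was 0.47, and 22 lay above the all-gene median. It was 0.43 with HIST3H2A and HIST1H2AD, whose control value was 0, set at the floor. Of the 13 higher members, 4 exceeded 2 counting SDs (HIST1H2BD, HIST2H2AA3, HIST2H2AA4 and HIST2H2BE), and of the 3 lower ones HIST1H2BC did. The remaining calls, apart from HIST3H2A, rest on few fragments. HIST2H2AA3 and HIST2H2AA4 carry the same values and are not separate measurements. With identical pairs counted once, 12 of 27 members were higher. The filter is itself passed more easily by members high in either library: HIST1H2AD, with a mean of 1.05 FPKM, was the lowest inside it and HIST2H2AC, with 0.97, the highest outside. Where at least 20 fragments were required over both libraries, 13 members were left, of which 6 were higher and 1 lower, where 12% of all genes were higher and 8.89% lower.

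In SKOV3, 18 members passed the same filter and 7 (38.9%) were at least 1.5-fold higher, where 20.7% of all genes tested were. A single member, HIST1H2AL, from about 5.0 fragments in the control and 2.0 in TET1, was lower (5.56%, against 18.1% of all genes). The median of the 18 was -0.02, with 9 members on either side of the all-gene median. The members' median was 0.38 with FPKM as deposited and 0.60 with TPM. With upper-quartile scaling, whose values are not centred on the all-gene median, it was 0.15. The limit of 1 admitted more members as deposited (21) and with TPM (35), while named members stayed within their counting error. HIST1H2AC was at 1.96 as deposited and 2.01 with TPM, and HIST1H2BK at -0.31 and -0.36. With TPM, 35 members were tested and 18 were higher and 6 lower, where 23.5% of all genes were higher and 20.2% lower. Of the 7, those above 2 counting SDs were HIST1H2AC and HIST3H2A. With identical pairs counted once, 6 of 16 members were higher. The lowest member inside the filter was HIST1H2BG, with a mean of 1.07 FPKM, and the highest outside was HIST4H4, with 0.925 FPKM.

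By type, the H2B genes had a median relative difference of 0.58 in HeyC2 (12 measured, 6 higher and 1 lower) and -0.10 in SKOV3 (5 measured, 2 higher). The H2A genes had medians of 0.36 (9 measured, 4 higher and 1 lower) and -0.02 (8 measured, 2 higher and 1 lower). In SKOV3 these medians were 0.08 for H2B and 0.15 for H2A with upper-quartile scaling. Values under that setting are not centred on the all-gene median, and 27.9% of all genes were called higher. The change of sign is therefore not particular to the histone genes. The H2A median moved most with the filter: it was 1.88 in HeyC2 and 0.85 in SKOV3 with a mean of at least 5 FPKM, and 1.87 and 0.75 with at least 20 fragments. Few H2A genes were left there, and both HeyC2 medians are the value shared by the copies HIST2H2AA3 and HIST2H2AA4. With identical pairs counted once, under the main filter, the H2A medians were 0.29 in HeyC2 and 0.03 in SKOV3. The H4 genes had medians of 0.47 (5 measured, 2 higher) and 0.90 (4 measured, 3 higher). The HeyC2 median is the value shared by HIST2H4A and HIST2H4B. It was 0.98 with identical pairs counted once and 0.61 without members that share a coding sequence. Of all genes tested, 12.5% were higher and 9.19% lower in HeyC2, and 20.7% and 18.1% in SKOV3. The SKOV3 value of the H4 genes rests on HIST2H4A, HIST2H4B and HIST1H4K, which share coding sequences with another member, and without these HIST1H4H alone was left, at -0.56.

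Only 15 members passed the filter in both lines, 14 did so in HeyC2 alone and 3 in SKOV3 alone, and 41 in neither. Of the 15, HIST1H2BD, HIST3H2A, HIST1H4K and HIST1H2BG were at least 1.5-fold higher in both lines, none was lower in both, and none was called in opposite directions. Over all 11136 genes measured in both lines, 396 (3.56%) were higher in both and 283 (2.54%) were lower in both. HIST1H2BG rests on about 1.1 fragments in control and 4.4 in TET1 of HeyC2, and 1.1 and 3.3 in SKOV3. Its differences of 1.04 and 0.61 were smaller than their counting SDs of 1.54 and 1.59. With the pseudocount of 1, HIST1H4K did not exceed 2 counting SDs in either line, nor did HIST1H2BD in SKOV3. With a pseudocount of 0.01 the HeyC2 difference of HIST1H4K was 1.87, against its counting SD of 0.93. Whether the effect of a member differed between the lines could not be tested with 1 library per group.

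**Figure D3:**
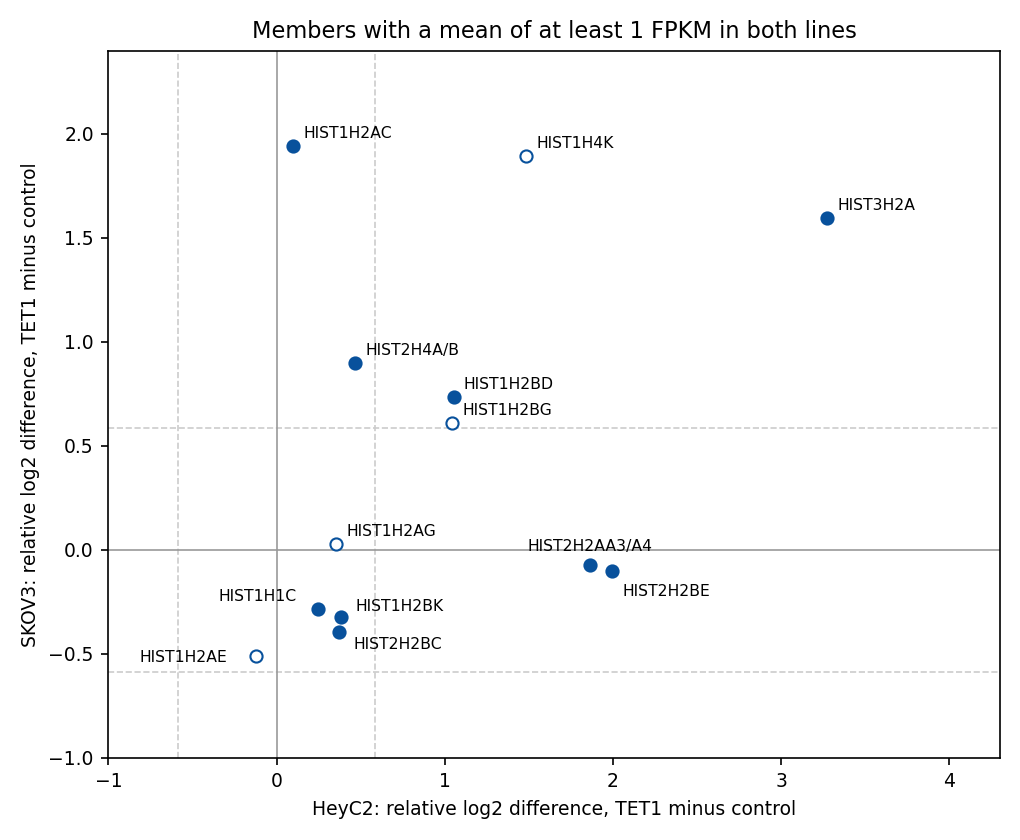
Relative log2 difference (TET1 minus control, centred on the median of all genes) of the 15 members measured in both lines, HeyC2 on the horizontal axis and SKOV3 on the vertical axis; dashed lines mark 1.5-fold and open circles mark members with under 20 estimated fragments in a line. HIST3H2A lies farthest right, at 3.28, a value set by the pseudocount since its HeyC2 control is listed at 0, and HIST2H2AA3/A4 and HIST2H2BE are high in HeyC2 alone, at 1.86 and 2.00.

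The level of a member went with how its transcripts are annotated to end. Of the 64 members with a stem-loop, 17 have an annotated transcript that ends over 100 bases past it. The distance is along the genome with introns counted, and whether such a transcript contains the stem-loop was not checked. These had a median of 2.09 FPKM over the means of the 4 libraries, and 11 of 17 had a mean of at least 1 FPKM. The 47 without such a transcript had a median of 0.30 FPKM, and 12 of 47 reached 1 FPKM. This is a description across genes that share clusters and sequence. AATAAA within 200 bases after the stop codon was found in 7 of 67 members (10.4%), against 17.5% of the other coding genes of those chromosomes. Among these were HIST1H1C, HIST1H2BD, HIST2H2AA3, HIST2H2AA4 and HIST1H4K, all with means of at least 1 FPKM, and HIST1H2AM and HIST1H4J, with means below it. Of the 10 most abundant members, 6 had a longer transcript, 4 had AATAAA and 8 had either.

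The annotated end was also set beside the differences between TET1 and control. In SKOV3, 8 members with a longer transcript were measured and 5 were at least 1.5-fold higher, with a median of 0.82, where 20.7% of all genes were higher. HIST2H4A and HIST2H4B, with the same values, are 2 of the 5. Of 8 measured members without one, 1 was higher and 1 lower, with a median of -0.18. In HeyC2, 5 of 11 with a longer transcript were higher and 1 lower (median 0.47), and 5 of 14 without one were higher and 2 lower (median 0.30), where 12.5% of all genes were higher and 9.19% lower. HIST2H2AA3 and HIST2H2AA4, whose reads cannot be told apart, stand on opposite sides of this split. FPKM per gene do not show which transcript form the fragments came from.

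**Figure D4:**
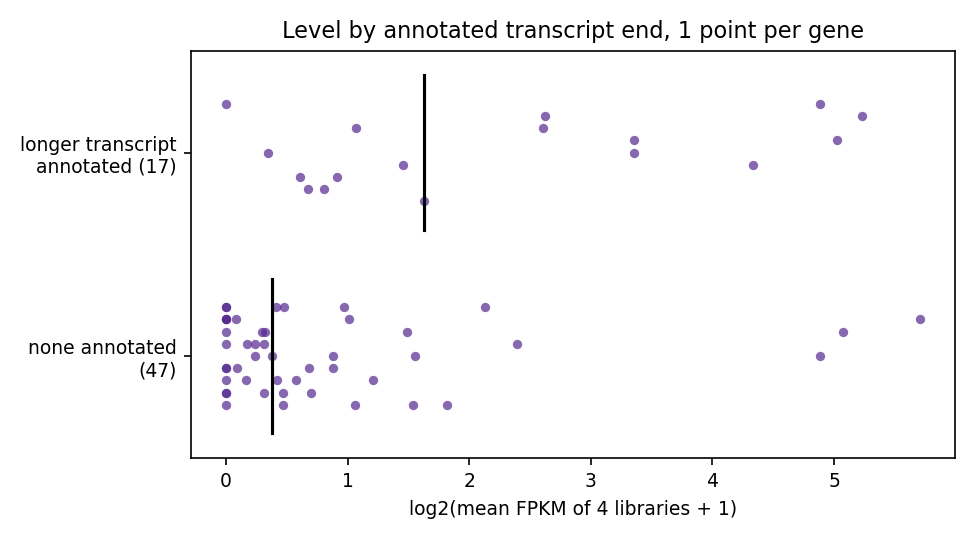
Mean level over the 4 libraries, as log2(FPKM + 1), of the 64 members with a stem-loop, split by whether a transcript ending over 100 bases past it is annotated; each point is a gene and the bar is the median. The 17 genes with a longer transcript have a median of 2.09 FPKM and the 47 without have 0.30 FPKM, and HIST1H2BK, at 51.3 FPKM, is the highest gene of the lower row.

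Histone genes often sit head to head and share a promoter region. Among the members, 12 such pairs lay with starts within 1000 bases of each other, from 194 to 979 bases apart, and 11 of them joined an H2A to an H2B gene. In 4 pairs both genes had a mean of at least 1 FPKM, in 4 a single gene did, and in 4 neither did. HIST1H2BK, the most abundant member, starts 251 bases from HIST1H2AH, which was listed at 0 in all 4 libraries. HIST2H2BE starts 236 bases from HIST2H2AC, which was at 1.94 FPKM with the empty plasmid and 0 with TET1 in HeyC2, and at 1.05 and 2.24 FPKM in SKOV3.

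The factors that make and use histone mRNA were read from lists. Of 22 genes listed for its supply, turnover and timing, 21 were measured in each line. They include SLBP, the transcription factors NPAT and HINFP and the U7 snRNP proteins LSM10 and LSM11. The list also holds ERI1, UPF1 and DCP2, which act in mRNA decay, and cell cycle genes such as CCNE2, CDK2 and E2F1. In HeyC2, 4 were higher (19.0%) and 2 lower (9.52%), with a median of -0.03, against 12.5% and 9.19% of all genes. In SKOV3, 1 was higher (4.76%) and 8 lower (38.1%), with a median of -0.43, against 20.7% and 18.1% of all genes. The higher gene was DCP2. The lower ones were SLBP, CSTF2, ERI1, UPF1, CCNE2, CCNA2, CDK2 and E2F1, while NPAT, HINFP, LSM10 and LSM11 were not called. SLBP was at 15.5 and 26.8 FPKM in control and TET1 cells of HeyC2, and at 67.2 and 47.4 FPKM in those of SKOV3, differences of 0.70 and -0.69. CCNA2, the S phase cyclin A2, was the only gene of that list at least 1.5-fold lower in both lines, at 9.37 and 2.75 FPKM in HeyC2 and 92.7 and 21.3 FPKM in SKOV3. Of all genes measured in both lines, 2.54% were lower in both.

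S phase genes and histone cluster genes differed in SKOV3. Of 30 genes of DNA replication and nucleotide supply, 26 (86.7%) were at least 1.5-fold lower in SKOV3 TET1 and none was higher. Of all genes, 18.1% were lower and 20.7% higher. The median of the 30 was -1.32, while the histone cluster genes had a median of -0.02 and a higher summed FPKM. In HeyC2, 3 of the 30 were higher (10%) and 2 lower (6.67%), against 12.5% and 9.19% of all genes. Their median was 0.01, against 0.47 for the histone cluster genes. RRM2, the small subunit of ribonucleotide reductase, and TK1, thymidine kinase, were lower in both lines, as were 2.54% of all genes measured in both. Fewer cells in S phase and less RNA per cell cannot be told apart in such bulk libraries.

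Histone chaperones, which carry and place histones, were also mostly below the all-gene median in SKOV3. There 13 of 27 (48.1%) were at least 1.5-fold lower and 1 (3.70%) higher (median -0.50), against 18.1% and 20.7% of all genes. In HeyC2, 4 (14.8%) were lower and 1 (3.70%) higher (median -0.08), against 9.19% and 12.5% of all genes. ASF1B, HJURP, the chaperone of the centromeric CENPA, and IPO4, an importin that carries H3 and H4, were lower in both lines, as were 2.54% of all genes measured in both. HJURP was at 18.7 and 3.22 FPKM in HeyC2 and 37.2 and 13.3 FPKM in SKOV3.

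Histone genes outside the clusters are polyadenylated and mostly made through the whole cell cycle. Of 19 such genes, 10 were measured in HeyC2, with 2 higher (20%) and 2 lower (20%), against 12.5% and 9.19% of all genes (median -0.34). In SKOV3, 11 were measured, with 3 higher (27.3%) and 2 lower (18.2%), near the 20.7% and 18.1% of all genes (median -0.15). Their summed FPKM was between 860 and 1754 per library, above the sum of the 73 cluster genes in each. Of all genes measured in both lines, 3.56% were higher in both. H1F0, which encodes the linker histone H1.0 of resting cells, was the only one of the 19 at least 1.5-fold higher in both lines. It was at 82.1 and 150 FPKM in HeyC2 and 1.57 and 6.53 FPKM in SKOV3, differences of 0.81 and 1.36. H2AFX, whose mRNA can end in a stem-loop or in a poly(A) tail, was at 22.5 and 21.3 FPKM in HeyC2 but 382 and 144 FPKM in SKOV3. H3F3B, which encodes the H3.3 variant, was between 217 and 351 FPKM.

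**Figure D5:**
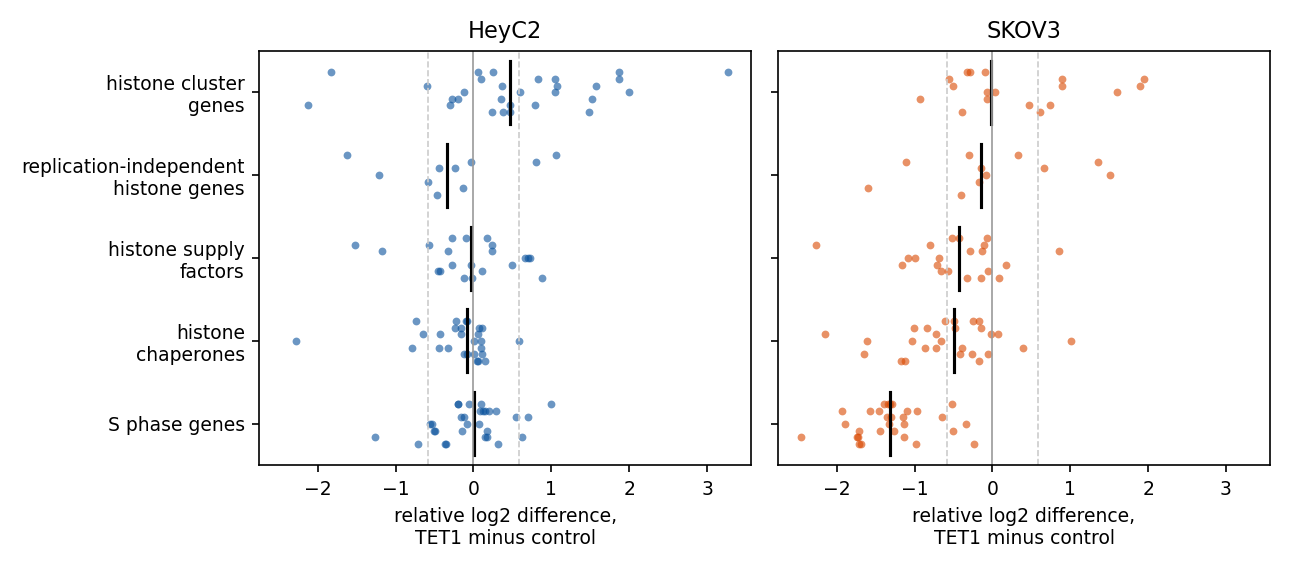
Relative log2 difference (TET1 minus control) of the measured genes of each list in HeyC2 (left) and SKOV3 (right); each point is a gene, the bar is the list's median and dashed lines mark 1.5-fold. The S phase genes lie to the left in SKOV3, with a median of -1.32, while the histone cluster genes spread on both sides around -0.02.

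Of 5 epithelial markers, KRT8 was between 386 and 775 FPKM and KRT18 between 193 and 379 FPKM in all 4 libraries. The other markers of that list divided by line: in HeyC2, CDH1 was at 0, EPCAM at most 0.38 and KRT19 at most 1.59 FPKM, while in SKOV3, CDH1 and EPCAM were at least 2.24 FPKM and KRT19 was at 255 FPKM with the empty plasmid and 0.46 with TET1. Of 4 ovarian and Müllerian markers, PAX8 was between 74.6 and 195 FPKM and MUC16 and WT1 were at most 0.53 FPKM. MSLN was at 46.6 and 77.5 FPKM in HeyC2 and 10.3 and 0.08 FPKM in SKOV3. The summed FPKM of 4 leukocyte markers was at most 0.61. Of 3 endothelial markers, CDH5 was at 18.9 and 94.6 FPKM in HeyC2 and at most 0.19 in SKOV3, and PECAM1 and VWF were at most 0.42 FPKM. Of 3 fibroblast markers, COL1A1 was at 0.57 and 1.76 FPKM in HeyC2 and 0.32 and 27.7 FPKM in SKOV3, LUM was at 0 in HeyC2 and at 0.51 and 4.32 FPKM in SKOV3, and DCN was at most 0.08 FPKM. Their part in the values of the histone genes was not tested.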

How the data were processed

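RNA of 4 libraries, 1 per cell line and plasmid, was sequenced as paired ends of 150 bases. The authors aligned reads to hg19 with Bowtie2 2.2.6 and deposited FPKM from RSEM 1.2.17. The annotation and any filter are not given in the sources used here. The deposited FPKM of each TET1 column lay on multiples of 0.01 times a constant (100% of the distinct values below 40 FPKM), and were divided by it. Differences used a pseudocount of 1 and genes with a mean of at least 1 FPKM per line. No test was made, since each group has 1 library.

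Members were matched to GENCODE on GRCh37, the build of hg19, through RefSeq synonyms, and 70 of 73 had a model. HIST1H2BF, HIST1H2BG and HIST1H4F had none and were not searched for a stem-loop. Depth was estimated as the depth and shared length offset (185 bases) at which low FPKM fell on whole fragments. Of 2413 genes with 1 known transcript that were searched, between 162 and 186 per library had values low enough to be used. The quantifier shares reads between near-identical histone genes, so single members are uncertain. HIST2H2AA3/HIST2H2AA4, HIST2H3A/HIST2H3C and HIST2H4A/HIST2H4B have identical values. Members with 3 or fewer fragments over both libraries of a line (40 in HeyC2, 51 in SKOV3) were given by count, except HIST4H4 and members described for their other line or as the partner in a pair.

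The named members were the 15 highest by mean FPKM, the 6 highest and 6 lowest mean differences in both lines, HIST4H4, those called in opposite directions, and list genes called alike in both lines. Others were named after their values were seen. The members and lists were chosen with earlier results of these data known. Alternatives were the deposited scaling, TPM, upper-quartile scaling, pseudocounts of 0.1 and 0.01, no filter, 5 FPKM, 20 fragments, no identical coding sequences and a fold limit of 2. Only the values with upper-quartile scaling were not centred on the all-gene median. Counting identical pairs once was added after the data were seen. Scripts used Python 3.11.15, numpy 2.4.6, pandas 2.3.3 and matplotlib 3.10.9, and were tested on simulated data.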

Additional observations from a re-analysis of the deposited data

How the results depend on the processing

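No paired analysis was possible because each comparison lies within a line, where each plasmid has 1 library, and the labels carry no replicate numbers. The lines were described apart and not taken as replicates of each other. The median of the histone cluster genes in HeyC2, 0.47, stayed between 0.36 (without members that share a coding sequence) and 0.55 (TPM) in the alternatives run. In SKOV3 the median of -0.02 was 0.38 with FPKM as deposited, 0.60 with TPM, 0.34 with no filter and 0.43 with a mean of at least 5 FPKM. These settings tested 21, 35, 49 and 10 members, against 18, so each describes another set of members. No direction can therefore be given for that list. With upper-quartile scaling, which is not centred on the all-gene median, the value was 0.15. The count of higher members in HeyC2, 13 of 29, was 5 of 11 with the 5 FPKM filter and 6 of 13 with at least 20 fragments. Of all genes, 11.6% and 12% were higher under these settings. In SKOV3 the count of 7 of 18 was 18 of 35 with TPM and 19 of 49 with no filter. It was 4 of 13 without members that share a coding sequence and 3 of 18 at a fold limit of 2. The shares of all genes higher were 23.5%, 18.1%, 20.7% and 10.1% in that order. With the 5 FPKM filter 5 of 10 SKOV3 members were higher, and with at least 20 fragments 5 of 11, against 18.7% and 19.9% of all genes. HIST2H4A and HIST2H4B, with the same values, are among the 5 in both. Lower members in HeyC2, 3 of 29, became 6 of 36 as deposited, 5 of 38 with TPM and 6 of 44 with no filter. They were 1 of 11 with the 5 FPKM filter and 1 of 13 with the 20-fragment filter. The shares of all genes lower were 12.9%, 11%, 7.84%, 7.86% and 8.89% in that order. The single lower member of 18 in SKOV3 became 2 of 21 as deposited, 6 of 35 with TPM and 6 of 49 with no filter. The shares of all genes lower were 17.9%, 20.2% and 14.5% in that order. With either smaller pseudocount it became 3 of 18, against 20.3% and 20.5% of all genes. It was 0 with 5 FPKM, 20 fragments or a fold limit of 2, against 16.5%, 18.1% and 6.49% of all genes. The median of the H4 genes in SKOV3, 0.90, turned to -0.56 without members that share a coding sequence, which leaves 1 gene. For single named members, 266 of the values under alternatives stayed within their counting error and 5 did not (HIST3H2A and HIST2H2BE in HeyC2), and no member past 1.5-fold changed direction. Nearer to 0, HIST1H2AG, HIST2H2AA3, HIST2H2AA4 and HIST2H2BE changed sign in SKOV3 under a setting, within their counting error. HIST2H2BE did so only with upper-quartile scaling, which is not centred. For the medians by histone type, 55 stayed within 0.1, 34 moved further and 1 reversed. Where no cause is given above, the cause was not tested.

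At these depths 40 members in HeyC2 and 51 in SKOV3 had 3 or fewer fragments over both libraries of the line, so a value of 0 does not show that a gene was silent. With 1 library per group the spread between cultures is unknown, and TET1 and control cannot be told apart from any other difference between the libraries of a line. Single values of near-identical members are uncertain, since the quantifier splits their reads.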

Other observations

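Of the 6 genes outside the set whose sequence after the stop codon held the stem-loop pattern, H3-7 is itself a histone H3 gene of chromosome 1 under a newer symbol, with the element 28 bases after the stop codon. The other 5 were CDC40, HIVEP1, SERBP1, SUDS3 and TXNRD1, with matches that began between 23 and 147 bases after the stop codon. They were named after the matches were seen, and a match of 16 bases is a description of the sequence alone.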
